A study of Gallus gallus with 21 samples.

Results

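In the retina of untreated White Leghorn chickens, 10 genes stood far apart between libraries of one and the same age. They are the genes off chromosome W with a mean of at least 5 CPM (reads of the gene scaled to a fixed library total) over 21 libraries and a distance of at least 3 log2 units between the highest and the lowest library of at least 1 age, on the scale log2(CPM + 0.5). The table holds 18631 genes, of which 7475 off W reached that mean. Among these 7475, the median of the widest range within an age was 0.50 log2 units and the 90th percentile 0.88. The 10 are LOC100859072, LOC112530611 and LOC112530612 on chromosome Z, STS and CD69L on chromosome 1, NEBL1 and LOC107053809 on chromosome 7, LOC112530237 on chromosome 23, and EYY68_mgr01 and EYY68_mgr02 on the mitochondrial chromosome. They were selected on their levels in all 21 libraries, so the width of their ranges is a description and was not tested. The rule did not use differences between ages, the split by W-linked transcripts or the genes beside the 10, and these were compared. A library that sets a wide range also moves the mean of its age. The p-values between ages do not account for that. Just inside the limit on range lay EYY68_mgr01 at 3.05 and LOC107053809 at 3.32 log2 units, and just outside it LOC112532382 at 2.98 and LOC112531859 at 2.85. Next to the limit on the mean lay LOC112530611, inside at 6.98 CPM, and LOC107052260, outside at 3.88 CPM.

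The birds were wild type controls raised in standard light with no treatment named in the labels. The start was at postnatal day 3, and retinas were taken 1, 3 and 6 days later (postnatal days 4, 6 and 9), with 7 libraries per age from total RNA depleted of ribosomal RNA. Each library has a code that ends in L or R, with L on 3, 3 and 5 codes at 1, 3 and 6 days. The labels give neither the sex of a bird nor whether libraries came from separate birds, so p-values measure the spread between these libraries. The libraries held 27.7 to 41.6 megareads, judged from the steps between low values, so that 1 read was worth 0.0241 to 0.0361 CPM. HINTW lies on chromosome W, which hens alone carry, and stood at 10 CPM or more in 13 libraries and below in 8. The 13 were 3, 4 and 6 of 7 at 1, 3 and 6 days, so age and the presence of W-linked transcripts are partly mixed.

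A gene can differ between animals of one strain without a difference in tissue or age. Sex chromosomes are the plainest case. In birds the female is ZW and the male ZZ, no chromosome-wide inactivation makes up for the extra Z, and a few Z loci are transcribed in females alone. The best known of these in the chicken is the male hypermethylated locus, a stretch of Z that is methylated and silent in males and gives long noncoding RNA in females. Variants of promoters, deleted or copied genes and clusters of related immune genes also give levels that differ from bird to bird. Mitochondrial ribosomal RNAs are special in another way, since depletion of ribosomal RNA removes part of them before sequencing and the amount that is left depends on that step.

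**Figure D1:**
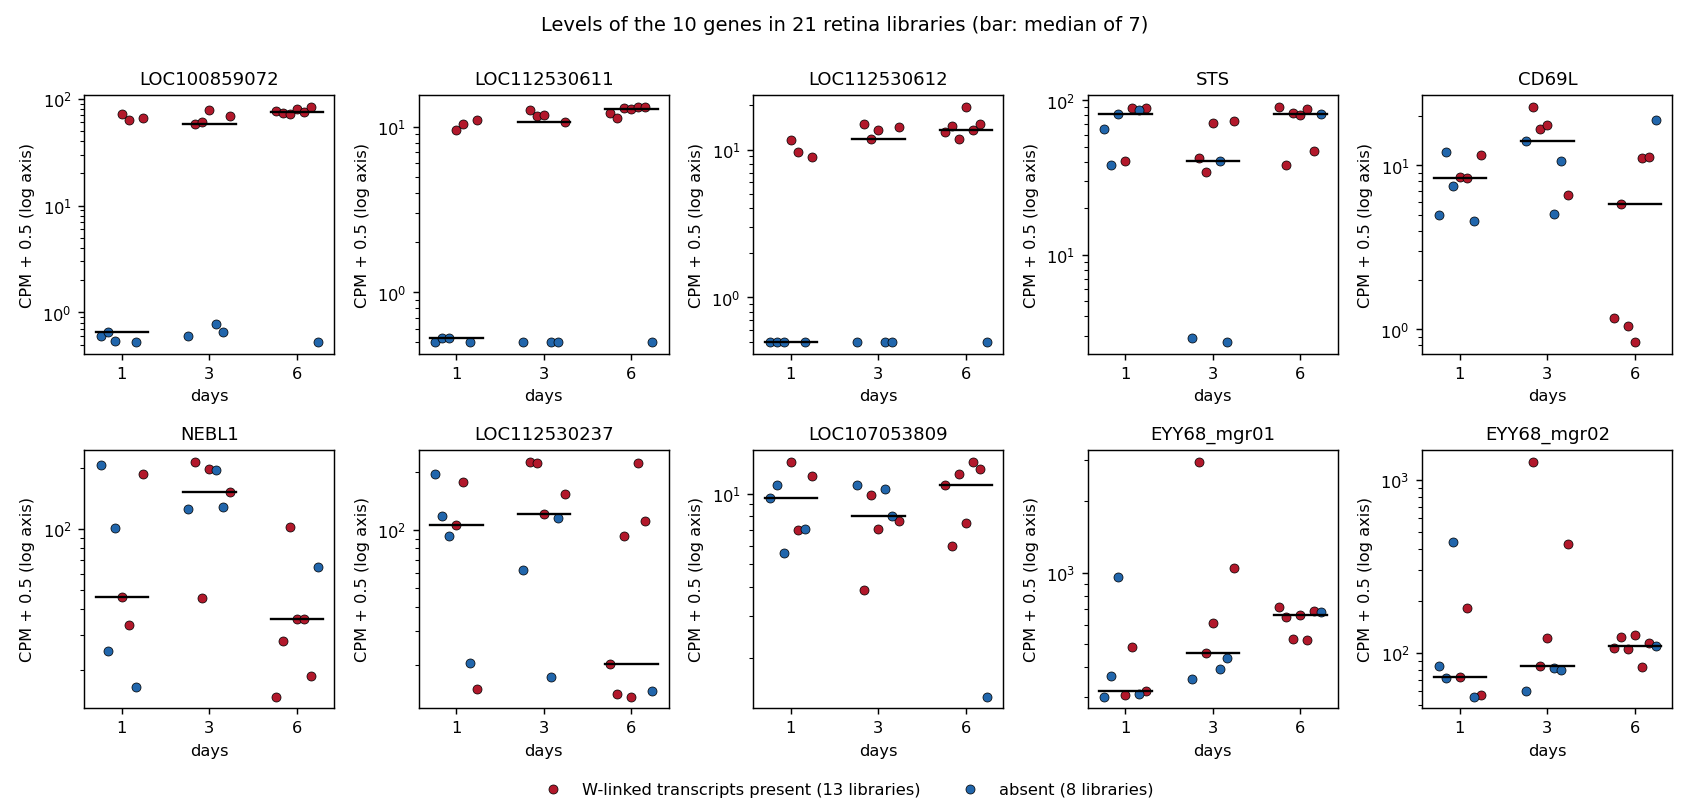
Level of each of the 10 genes in each of the 21 libraries (CPM + 0.5, log axis) by days after the start, with the median of 7 libraries as a bar. Red points are the 13 libraries with W-linked transcripts and blue points the 8 without. The Z genes split by colour at every age, and the low points of STS and CD69L fall at 3 and at 6 days.

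A level with 2 separate states leaves an empty stretch between its low and its high libraries. A gap of at least 2 log2 units with at least 2 libraries on each side was found in 4 of the 10 genes, the 3 on Z and STS, against 0.0535% of the 7475 genes. Those 4 are all the genes of the background that have such a gap, and because wide ranges chose them nothing is read from that count. The gaps were 6.20 log2 units in LOC100859072, 4.18 in LOC112530611, 4.15 in LOC112530612 and 3.58 in STS. CD69L came next with 1.97 and LOC112530237 with 1.60, while the largest gap of NEBL1 was 0.63. The median largest gap of the 7475 genes was 0.13. In EYY68_mgr01, EYY68_mgr02 and LOC107053809 the largest gap, of 1.49 to 1.53, set 1 library apart from the other 20.

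LOC100859072 is a long noncoding RNA gene on the minus strand of Z (27313208 to 27329640, GRCg6a). It was high in exactly the 13 libraries with W-linked transcripts, at 57.2 CPM in the lowest, 72.1 in the median and 82.7 in the highest. In the other 8 libraries it lay between 0.0286 and 0.284 CPM, with a median of 0.0974. No library lay between these levels. LOC112530611, on the plus strand (27307936 to 27309304) and overlapping LOC107052259 on the other, was at 9.09 to 12.6 CPM in the 13, with a median of 11.3, and at 0 to 0.0281 CPM, about 1 read or fewer, in the 8. LOC112530612, on the minus strand (27346529 to 27358088), was at 8.39 to 18.9 CPM in the 13, with a median of 13.1, and at or within rounding of 0 in the 8. A total of 3 reads, taken as an approximate upper limit for a count of 0 and not an absolute bound, would be 0.0722 to 0.108 CPM. Each gene thus had a high and a low level with nothing between, and at every age the level went with the W-linked transcripts. The table names no function for these genes, and RefSeq lists LOC100859072 as a long noncoding RNA. In retina, a mixture of cells, fewer cells of a type and less RNA per cell cannot be told apart.

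The mean log2 level of the W-linked genes, scaled so that 1 unit is the distance between the 13 and the 8 libraries, was tested beside the age means in limma, and calls were counted over the 12579 tested genes off W. Of the 10 genes, 3 rose with this W score and 0 fell, beside 4.41% of all genes in either direction, 1.08% upwards and 3.33% downwards. The 3 are the Z genes, which reached the limits on mean and range only through the 13 libraries, so nothing is read from the count. Their coefficients were 6.83 for LOC100859072 (SE 0.08), 4.48 for LOC112530611 (SE 0.07) and 4.61 for LOC112530612 (SE 0.09). These sizes depend on the pseudocount, since the low state is near 0 reads, and are no bounds. The rule used the width of a range and not which libraries were high. In an exact two-sided permutation of the W-linked transcripts within ages, which leaves the choice of genes as it is, each of the 3 had p = 0.000117, the smallest that 8575 arrangements can give. The 3 genes split into the same 13 and 8 libraries, so these p-values are not 3 separate results. Across genes off W, 0.111% had all 13 libraries above all 8, and 1.84% all 13 below. On Z the share was 2.13%, or 13 of 611 genes, and on the other chromosomes 0.00836%, or 1 of 11968. Most of these 13 Z genes are the 3 themselves and genes close to them, described below. The share is therefore neither a rate for Z as a whole nor a background apart from the 3.

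Within the 13 libraries the levels spanned 0.53, 0.45 and 1.12 log2 units for LOC100859072, LOC112530611 and LOC112530612. In the libraries with W-linked transcripts LOC100859072 averaged 66.9 ± 4.61 CPM at 1 day, 65.9 ± 9.24 at 3 days and 76.2 ± 4.25 at 6 days (SD, n = 3, 4 and 6). LOC112530611 averaged 9.78 ± 0.673, 11.2 ± 0.766 and 12.1 ± 0.729 CPM, and LOC112530612 9.58 ± 1.42, 13.1 ± 1.34 and 14.1 ± 2.57 CPM. From 1 to 6 days the log2 differences among these libraries were 0.19, 0.29 and 0.53, with p = 0.0238, 0.0119 and 0.0119 in exact two-sided permutation tests added after the data were seen, whose smallest possible p is 0.0119. In limma on these 13 libraries the adjusted p from 1 to 6 days was 0.172 for LOC100859072, 0.04495 for LOC112530611 and 0.0264 for LOC112530612. Over all 21 libraries the same differences were 3.08, 2.09 and 2.30 and did not pass in limma (adjusted p = 0.131, 0.118 and 0.0958), although the exact two-sided permutation tests gave p = 0.0484, 0.0251 and 0.0239. There were 3 high libraries at 1 day and 6 at 6 days. Without C65L, the 1 low library at 6 days, they were 4.11, 2.76 and 3.00 and passed (adjusted p = 0.0369, 0.0335 and 0.0254). Across the 13 libraries LOC100859072 and LOC112530612 had r = 0.38 (permutation p = 0.165) and rho = 0.47 (permutation p = 0.132), and r = 0.74 without the libraries C33R and C41R, which lay farthest out. LOC100859072 and LOC112530611 had r = -0.26 (permutation p = 0.481) and rho = -0.23 (permutation p = 0.544). LOC112530611 and LOC112530612 had r = -0.16 (permutation p = 0.618) and rho = -0.10 (permutation p = 0.756).

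The 3 genes lie within 50153 bases of each other, in a block of noncoding genes that shared the split. From 700000 bases before to 700000 bases after them the table has 43 genes, of which 13 had all 13 libraries with W-linked transcripts above all 8 without. Of the 22 noncoding genes 12 did so, and all 12 lie among the 18 noncoding genes between SLC1A1 and CDC37L1, a stretch of 319378 bases. In LOC107052295 and LOC107052280, 2 of the 12, the lowest of the 13 libraries lay under the worth of 1 read, so that their split rests on less than a read. LOC107052260, which missed the limit on the mean, was at 5.38 to 7.23 CPM in the 13 and at 0 to 0.0281 CPM in the 8. Smaller members of the block were LOC107052275 at 0.909 to 2.13 CPM and LOC107052261 at 0.785 to 2.62 CPM in the 13, both at 0.0281 CPM or less in the 8. The protein-coding genes around the block mostly did not share the split. Of 21 protein-coding genes in the window, 1 had all 13 libraries above and 0 had all 13 below. That gene is SLC1A1, a transporter of glutamate into neurons, at 30.7 ± 2.04 CPM in the 13 and 20.2 ± 1.42 CPM in the 8 (SD), with a W-score coefficient of 0.63 (SE 0.05, adjusted p = 4.19e-10, limma). CDC37L1 on the other side, related to a partner of the chaperone HSP90, was at 12.6 ± 1.03 and 11.1 ± 1.23 CPM (SD), and its ranges overlapped. By Spearman's rho over 21 libraries after subtraction of age means, the genes most like LOC100859072 were LOC112530612 (0.98), LOC107052260 (0.96) and LOC112530611 (0.96). The same 4 genes were named for each of the 3, as a description, since they share the 2 states.

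**Figure D2:**
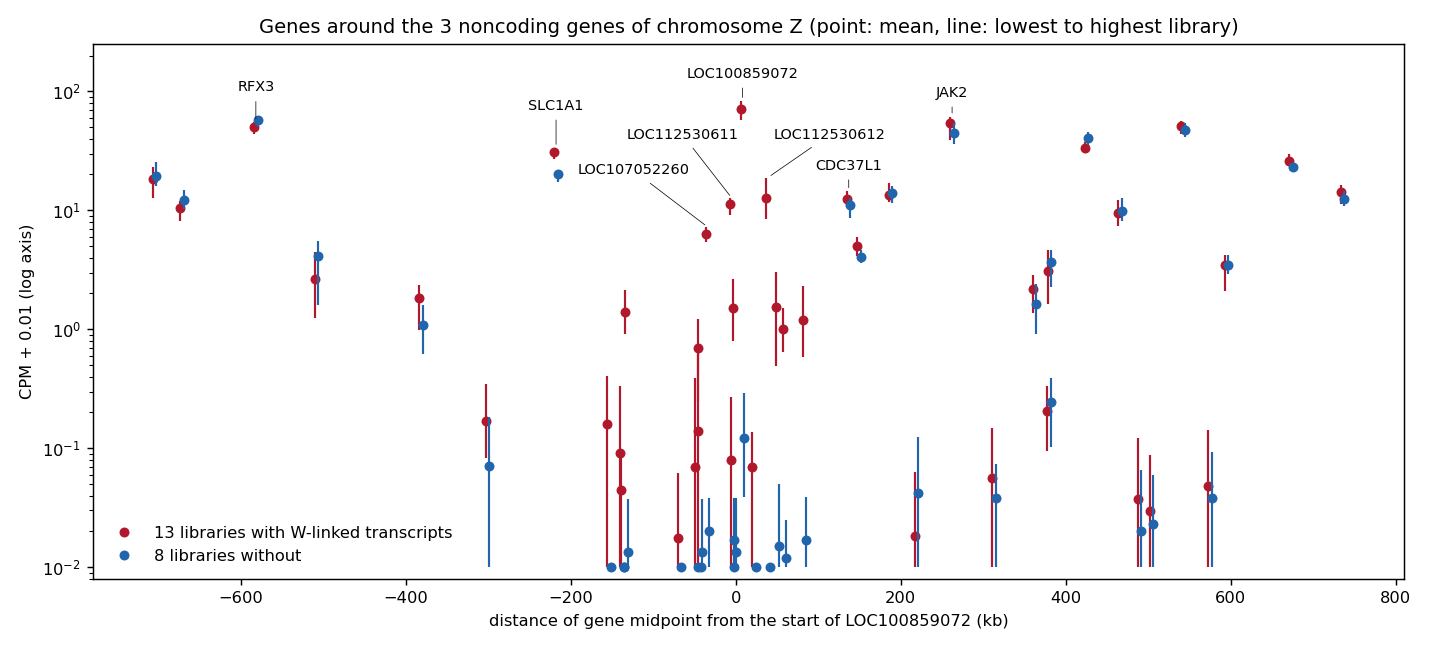
Genes of the Z window by distance of their midpoint from the start of LOC100859072 (kb), with the mean (point) and the lowest to highest library (line) on a log axis of CPM + 0.01, red for the 13 libraries with W-linked transcripts and blue for the 8 without. The split noncoding genes sit between SLC1A1 and CDC37L1. Among the protein-coding genes SLC1A1 is split too, and the others show overlapping red and blue lines.

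STS encodes steroid sulfatase, which frees steroids such as estrone and dehydroepiandrosterone from their sulfate. In the table it lies on an autosome, on the minus strand of chromosome 1 (127707646 to 127827227). At 1 day the lowest library stood at 37.6 CPM, the median at 81.2 and the highest at 89.1. At 3 days these values were 2.22, 39.8 and 73.5 CPM, and at 6 days 37.5, 80.9 and 89.8 CPM. Sorted over all libraries the levels were divided into 3 bands at 10 and 50 CPM, limits set after the values were seen. The 2 lowest libraries, C31L and C43R, had 2.39 and 2.22 CPM. Then came 7 libraries from 34.0045 to 46.4 CPM with a median of 39.8, and 12 from 64.97 to 89.8 CPM with a median of 81.6, a ratio of medians of 2.05. The upper bands are separated by 0.48 log2 units only, against 3.58 below them. That is less than the largest gap of NEBL1, 0.63, so the middle and upper bands are a description and not separate states. The 7 libraries of the middle band were 2, 3 and 2 of 7 at 1, 3 and 6 days, and the 12 of the upper band were 5, 2 and 5. Both lowest libraries were from 3 days and lacked W-linked transcripts, while the middle band had 5 libraries with W-linked transcripts and 2 without. The upper band had 8 with and 4 without.

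STS rose from 3 to 6 days by 1.66 on the log2 scale (SE 0.59, limma adjusted p = 0.0458; exact two-sided permutation p = 0.0239). From 1 to 3 days the difference was -1.598 (SE 0.59, adjusted p = 0.0829; exact p = 0.0379), and it passed with the W score as a covariate (-1.77, adjusted p = 0.0330), without C41R (-1.88, adjusted p = 0.0478) or without C44R (-1.89, adjusted p = 0.0456), while over the libraries with W-linked transcripts it was -0.38 (adjusted p = 0.580). From 1 to 6 days it was 0.06 (adjusted p = 0.946). STS met the limit on range only at 3 days, through C31L and C43R. Its ranges at 1 and 6 days were 1.23 and 1.25 log2 units. The p-values of comparisons with 3 days do not account for that choice. The call from 3 to 6 days rests on the same libraries, C31L and C43R. It was +1.17 (adjusted p = 0.115) without C31L and +1.16 (adjusted p = 0.110) without C43R, and in the libraries with W-linked transcripts, where neither occurs, it was +0.36 (adjusted p = 0.463). It held when C17L, C19L, C33R, C34L, C41R, C42L, C44R or C58R was left out and was lost without any of the other 13. It was also lost with no filter (adjusted p = 0.0686), median-of-ratios scaling (0.0657), robust empirical Bayes (0.0857) and the W score as a covariate (+1.33, adjusted p = 0.0846). The W score had a coefficient of 1.15 (SE 0.48) that did not pass (adjusted p = 0.213; exact within ages p = 0.0771), nor did the final letter of the code (difference L minus R -0.41, exact within ages p = 0.472).

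Genes beside STS showed no such bands. PUDP, a phosphatase gene that overlaps the start of STS on the other strand, was at 10.2 to 11.2 CPM in the 2 lowest libraries, 9.32 to 12.7 in the middle band and 9.55 to 12.4 in the upper. It fell from 3 to 6 days (-0.18, SE 0.06, adjusted p = 0.0419), while STS rose. In the upper band STS and PUDP had r = 0.08 (permutation p = 0.835) and rho = -0.08 (permutation p = 0.810), and in the middle band r = -0.05 and rho = 0.04 (permutation p = 1 for both). ANOS1, a gene of neuron migration, was at 46.1 to 74.3 CPM and NLGN4L, a neuroligin of synapses, at 97.1 to 121 CPM, with overlap between all bands. PNPLA4, a lipase gene 194563 bases away, was at 2.04 and 2.58 CPM in the 2 lowest libraries, 0.919 to 2.19 in the middle band and 0.928 to 1.61 in the upper, where it had r = -0.65 with STS (permutation p = 0.106) and rho = -0.42 (permutation p = 0.226). PNPLA4 rose from 1 to 3 days (+0.45, SE 0.12, adjusted p = 0.0185) and fell from 3 to 6 days (-0.59, SE 0.12, adjusted p = 0.00130), and as both lowest STS libraries are from 3 days the contrast of bands is mixed with age. Of the 10 nearest genes this 1 reached a rho of 0.6 in either direction, at -0.61. The genes most like STS over 21 libraries were POGLUT1, which adds glucose to proteins such as Notch (rho 0.76), LOC430443 (0.70) and LOC112532217 (0.70). Among 14 tested genes of the sulfatase and steroid list 1 rose from 3 to 6 days, STS itself, and 1 fell, ARSJ, beside 17.4% and 4.94% of all genes. From 1 to 6 days 3 rose, among them the lysosomal sulfatase ARSA (+0.57, SE 0.14, adjusted p = 0.00319), and 0 fell, beside 30.0% of all genes higher and 2.58% lower. Among the 14 genes of this list with a mean of at least 0.5 CPM, STS was the 1 with a range of 2 log2 units or more within an age.

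**Figure D3:**
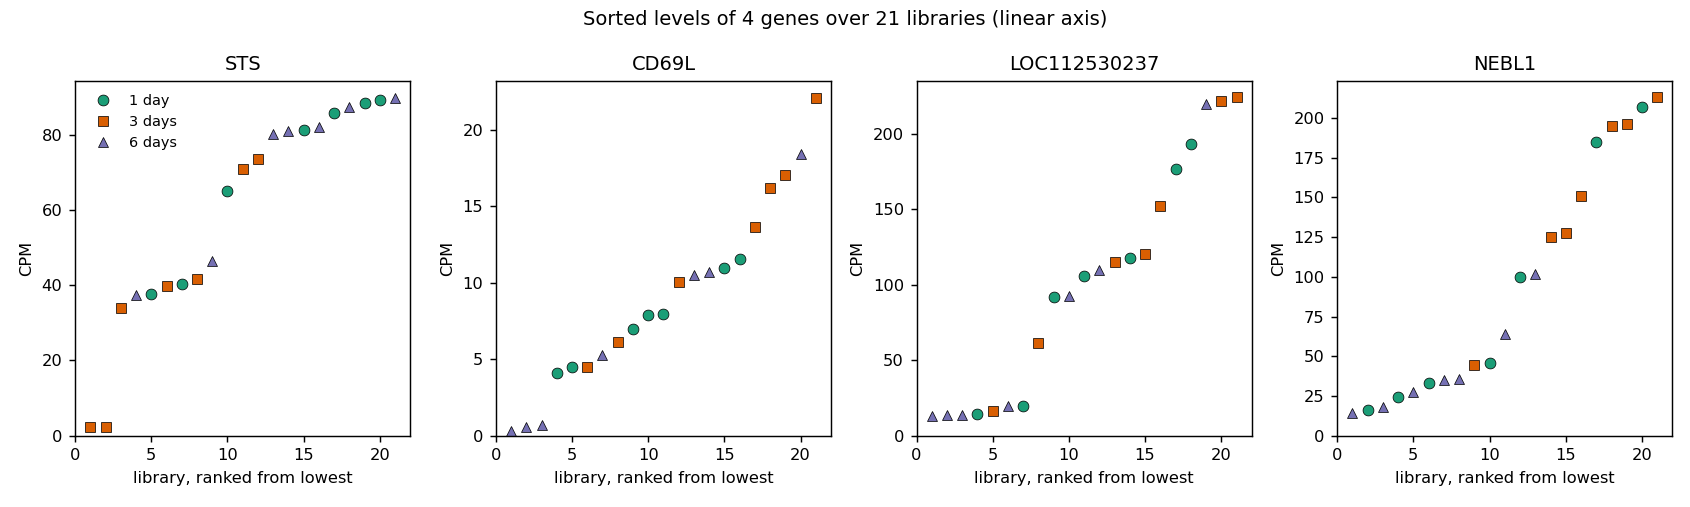
Levels of STS, CD69L, LOC112530237 and NEBL1 (CPM, linear axis from 0) with the 21 libraries ranked from the lowest, marked by days. STS shows 2 libraries near 2 CPM and steps to 34.0045 and 64.97 CPM, CD69L has 3 libraries under 1 CPM, LOC112530237 steps from 19.97 to 61.5 CPM, and NEBL1 climbs with no wide gap.

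CD69L, named for its likeness to the lymphocyte lectin CD69, lies near the end of chromosome 1 (237200 to 246157, plus strand) beside CLC2DL3 and a run of genes that have no name in the table. At 1 day its lowest, median and highest libraries stood at 4.10, 7.88 and 11.6 CPM. At 3 days they stood at 4.52, 13.7 and 22.1 CPM, and at 6 days at 0.335, 5.29 and 18.4 CPM. The 3 lowest were all from 6 days, C62L at 0.335, C59L at 0.546 and C57L at 0.676 CPM, all with W-linked transcripts and all with a code ending in L. The other 18 libraries formed an unbroken series from 4.10 to 22.1 CPM, in which the 4 other 6-day libraries lay at 5.29, 10.5, 10.7 and 18.4 CPM. The split is thus of 3 libraries against 18 with no second step above it.

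CD69L fell from 3 to 6 days by 1.60 on the log2 scale (SE 0.57, limma adjusted p = 0.0472), but the exact two-sided permutation test did not pass (p = 0.0740). CD69L met the limit on range only at 6 days, through C57L, C59L and C62L. Its ranges at 1 and 3 days were 1.39 and 2.17 log2 units. The p-values of comparisons with 6 days do not account for that choice. The call held when C42L, C44R, C63R, C64L or C65L was left out and was lost without any of the other 16, with changes from -1.98 to -1.23 over all 21. It was also lost with a pseudocount of 2.5 (-1.02, adjusted p = 0.0590), no filter (0.0703), robust empirical Bayes (0.0868), the letter as a covariate (0.0828) and the W score as a covariate (0.0594). With the fit kept to libraries that have W-linked transcripts the change was -2.27 (adjusted p = 0.0391; exact p = 0.0524). With the W score CD69L had a coefficient of -0.08 (adjusted p = 0.950), and L minus R was -0.52 (exact within ages p = 0.345). From 1 to 3 days it stood at +0.61 (adjusted p = 0.522) and from 1 to 6 days at -0.99 (adjusted p = 0.190).

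Some genes within 60 kb of CD69L were low in the same libraries, most fully LOC107053477 and LOC112532969. They were picked after their values were seen. LOC107053477, a noncoding gene 42836 bases away on the same strand, was at 0.155 to 0.221 CPM in C57L, C59L and C62L and at 0.572 to 4.05 CPM in the other 18. LOC112532969, 44303 bases away on the other strand, was at 0 to 0.103 CPM in these 3 and at 0.118 to 1.64 CPM in the 18. Both thus had their 3 lowest values in the 3 libraries that were lowest for CD69L, although for LOC112532969 the gap is smaller than the worth of 1 read. In LOC112532872 and LOC101747821 the lowest library was instead C58R, at 0.059 and 0.296 CPM, where CD69L stood at 5.29 CPM. LOC107049847, 41335 bases away, had a rho of 0.10 with CD69L. Among the 18 other libraries CD69L still moved with LOC107053477 (r = 0.80, permutation p = 0.000420, adjusted 0.00151; rho = 0.74, permutation p = 0.00249, adjusted 0.00747), with r = 0.75 without C42L and C58R. With LOC112532969 it had r = 0.66 (permutation p = 0.00933, adjusted 0.0210) but rho = 0.51 (permutation p = 0.0544, adjusted 0.122), and r = 0.47 without those libraries. With LOC112532872 it had r = 0.57 (permutation p = 0.0251, adjusted 0.0502) and rho = 0.42 (permutation p = 0.110, adjusted 0.221). The adjustment is over 18 relations computed in all. Of the 10 nearest genes, these 3 were the ones past a rho of 0.6 with CD69L over all 21 libraries, which include the 18. The p-values do not account for that choice, so these relations are a description only.

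LOC770705, 22502 bases from CD69L, was at 7.92 to 12.7 CPM in 5 libraries, C23R, C33R, C34L, C41R and C65L, and at 0.465 CPM or less in 16. The 5 were 1, 3 and 1 of 7 at 1, 3 and 6 days, and 4 of them had W-linked transcripts. They include C33R, C65L, C41R and C34L, the 4 highest libraries for CD69L, and over all 21, after subtraction of age means, LOC770705 had r = 0.50 and rho = 0.42 with CD69L. LOC770705 thus had 2 clear states as well, but with a mean of 2.58 CPM it fell below the limit on the mean. LOC107055489 on the other side of CD69L was at 0.734 to 1.14 CPM in the 3 low libraries and at 0.813 to 3.499 CPM in the other 18, which overlap. LOC430443 was at 10.6 to 12.4 CPM in the 3 and at 3.95 to 10.9 CPM in the 18. Its 7 highest libraries were the 7 from 6 days, at 8.93 to 12.4 CPM against 8.50 or less at 1 and 3 days, so the contrast of the 3 with the 18 is mixed with age, and its rho with CD69L after subtraction of age means was -0.30. How reads shared by near copies were assigned is not stated, so values of single lectin genes are uncertain. Of the 22 genes in the list of the chicken immune regions and natural killer lectins the table holds 16, and 3 of these passed the filter, CD69L among them. In this list CD69L and BG8 had a range of 2 log2 units or more within an age, among the 3 genes with a mean of at least 0.5 CPM. From 3 to 6 days BRD2, a chromatin reader encoded in the immune region, rose (+0.40, SE 0.13, adjusted p = 0.0261) and BG8 did not pass (+0.06, adjusted p = 0.926). Of 9 interferon genes tested, 1 rose and 3 fell from 3 to 6 days, beside 17.4% of all genes higher and 4.94% lower.

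**Figure D4:**
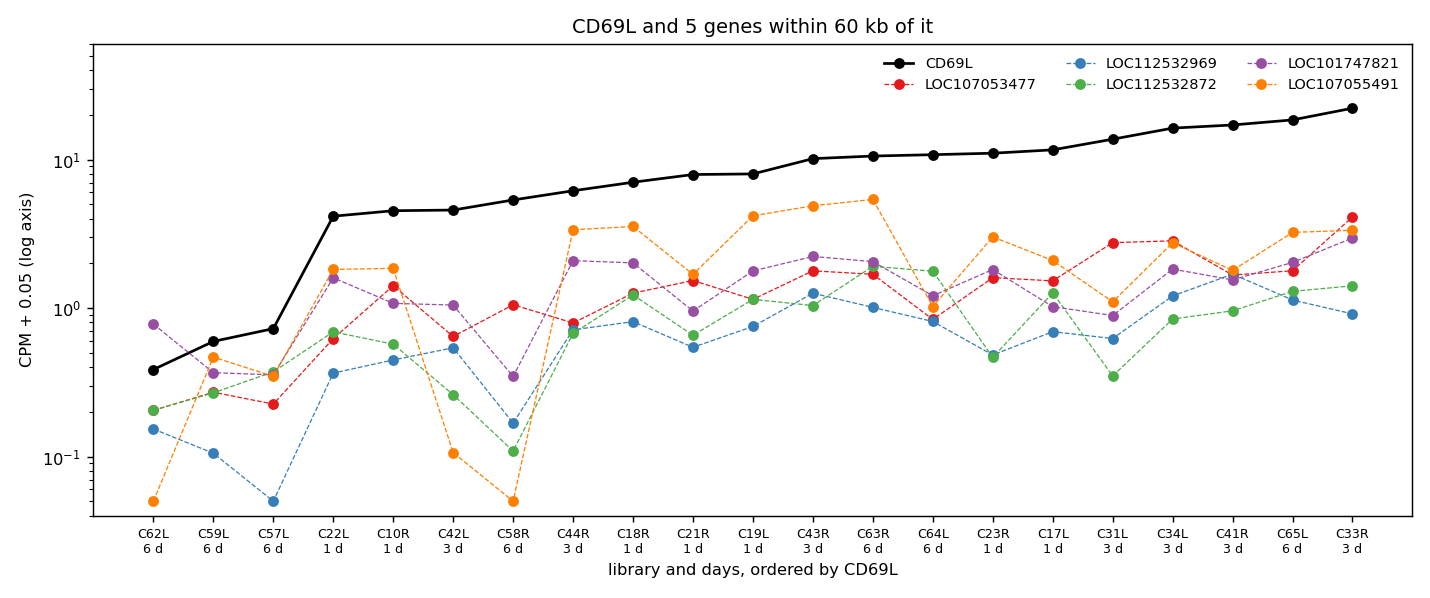
CD69L (black) and 5 genes within 60 kb of it, as CPM + 0.05 on a log axis, with the 21 libraries ordered by CD69L and labelled with code and days. In C62L, C59L and C57L, all from 6 days, CD69L, LOC107053477 and LOC112532969 are at their lowest, and C58R is low in several of the others.

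NEBL1 (chromosome 7, 35172107 to 35310023, minus strand) carries a symbol of the nebulin family, whose best known member is a giant protein along the actin filaments of muscle. The RefSeq table of GRCg7b places a gene named NEB next to RIF1, which overlaps an end of NEBL1 here, and the symbol NEB itself is not used in the deposited table. At 1 day the lowest, median and highest libraries of NEBL1 stood at 16.1, 45.8 and 207 CPM. At 3 days they stood at 44.8, 151 and 213 CPM, and at 6 days at 14.4, 35.2 and 102 CPM. The level spread without a wide gap, so that no states can be drawn from it. At 3 days 6 of 7 libraries lay above all 7 of the 6-day libraries, and C34L at 44.8 CPM did not.

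NEBL1 fell from 3 to 6 days by 1.96 on the log2 scale (SE 0.51, limma adjusted p = 0.00778; exact two-sided permutation p = 0.00291). The call held without each of the 21 libraries in turn, at -2.23 to -1.76, and with the fit kept to libraries that have W-linked transcripts, at -2.04 (adjusted p = 0.0231; exact p = 0.0190). Within the codes ending in L the difference was -1.50 (3 against 5 libraries, exact p = 0.125) and within those ending in R -2.42 (4 against 2, exact p = 0.0667, the smallest that this split allows). From 1 to 3 days it stood at +1.21 (SE 0.51, adjusted p = 0.125) and from 1 to 6 days at -0.75 (adjusted p = 0.265). With the W score the coefficient was -0.16 (adjusted p = 0.886), and L minus R was -0.89 (exact within ages p = 0.0738).

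None of the 10 genes nearest to NEBL1 reached a rho of 0.6 with it in either direction. RIF1, which sets the timing of replication and overlaps NEBL1 on the other strand, had r = 0.19 (permutation p = 0.342) and rho = 0.11 (permutation p = 0.615). NEBL, the nebulette gene of heart muscle, had r = -0.01 (permutation p = 0.962) and rho = -0.09 (permutation p = 0.688), and stood at +0.04 from 3 to 6 days (adjusted p = 0.691). Of 3 tested nebulin genes NEBL1 alone passed in any of the age comparisons. The muscle list summed to 1.52 to 3.14 CPM over the libraries, and 3 of its 8 genes in the table, DES, TNNT3 and MYL1, were under 0.05 CPM on average, while ACTA2, TNNI2 and ACTC1 were its most abundant. MYBPC3, a heart muscle gene outside the list that was named after its values were seen, stood at 38.7 CPM in C64L, at 12.97 CPM in C10R and at 0.359 to 1.23 CPM in the other libraries. NEBL1 was at 18.2 CPM in C64L and at 207 CPM in C10R, its highest library at 1 day. The muscle list summed to 2.28 CPM in C64L and 2.01 CPM in C10R, with a median of 2.38 CPM over the libraries. The part of muscle transcripts in the spread of NEBL1 was not tested.

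LOC112530237, a gene of 206 bases that RefSeq lists as a small nucleolar RNA, lies inside RCC1 on the same strand of chromosome 23 (2304003 to 2304208). Small nucleolar RNAs guide chemical changes of ribosomal RNA and are usually cut from introns of a host gene. The lowest, median and highest libraries stood at 14.5, 106 and 193 CPM at 1 day. They stood at 16.7, 120.4 and 224 CPM at 3 days and at 13.2, 19.6 and 220.1 CPM at 6 days. In all, 7 libraries lay between 13.2 and 19.97 CPM, C31L stood at 61.5 CPM, and 13 lay between 92.0 and 224 CPM. The 7 low libraries were 2, 1 and 4 of 7 at 1, 3 and 6 days, and 4 of them had W-linked transcripts. No age difference passed, with -1.40 from 3 to 6 days (SE 0.70, adjusted p = 0.155; exact p = 0.118), and the W score did not either (0.95, SE 0.60, adjusted p = 0.439). RCC1, which loads the GTPase Ran and whose transcript surrounds this gene, was at 0.240 to 1.08 CPM and had a rho of -0.25 with it, and none of its 10 neighbours reached 0.6. Another 17 genes under 300 bases reached the mean of 5 CPM, and their widest ranges within an age were 0.43 to 2.35 log2 units, with a median of 1.02, against 4.01 for LOC112530237.

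EYY68_mgr01 and EYY68_mgr02 are the large and small ribosomal RNA of mitochondria (2350 to 3972 and 1301 to 2277 of the mitochondrial chromosome), which form the core of the ribosome that makes the proteins of the respiratory chain. EYY68_mgr01 stood at 299.7, 316 and 959.7 CPM in the lowest, median and highest libraries at 1 day, at 354, 457 and 2940.2 CPM at 3 days and at 521, 663 and 718 CPM at 6 days. EYY68_mgr02 stood at 55.5, 71.7 and 439.6 CPM at 1 day, at 59.6, 84.0 and 1273 CPM at 3 days and at 82.9, 109.6 and 126 CPM at 6 days. The widest spread of both is at 3 days and rests on C33R, followed by C44R (1043 and 425 CPM) and, at 1 day, C18R. At 6 days the libraries lay within 0.46 and 0.60 log2 units of each other. Per length, C33R held 1812 CPM per kb of EYY68_mgr01 and 1303 of EYY68_mgr02, and C22L, the lowest for EYY68_mgr02, 189.8 and 56.8. The ratio of the large to the small RNA ran from 2.18 in C18R to 6.72 in C57L with a median of 5.27, and C33R and C44R, at 2.31 and 2.45, lay near its low end.

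The mitochondrial pair moved together and with another ribosomal RNA. EYY68_mgr01 and EYY68_mgr02 had r = 0.97 (permutation p = 1e-05, adjusted 0.000120, the raw value being the smallest that can be given) and rho = 0.93 (permutation p = 0.000120, adjusted 0.000720), with r = 0.93 without C18R and C33R. Within ages r was 0.96, 0.99 and 0.67 at 1, 3 and 6 days. With the nuclear ribosomal RNA gene LOC112533599, at 365 to 3248 CPM with C33R highest, EYY68_mgr01 had r = 0.85 (permutation p = 2e-05, adjusted 0.000120) and rho = 0.78 (permutation p = 3e-05, adjusted 0.000270), or r = 0.70 without those 2 libraries. At 6 days alone that r was 0.20. With a further ribosomal RNA gene, LOC112533601, it had r = 0.65 (permutation p = 0.00768, adjusted 0.0197) and rho = 0.54 (permutation p = 0.0163, adjusted 0.0420), but r = 0.46 without C18R and C33R and r = -0.64 at 6 days, so that relation rests on few libraries. With EYY68_mgp13, an entry that takes in the mitochondrial chromosome from 4055 to 16042, it had r = 0.73 (permutation p = 0.00530, adjusted 0.0159) and rho = 0.75 (permutation p = 0.000460, adjusted 0.00166), and r = 0.61 without those 2. Both mitochondrial genes are among the 10 through C33R, their highest library. LOC112533599 and LOC112533601 are not neighbours of the pair and were named after their values were seen. The p-values do not account for these choices, so these relations are a description only. The part of the depletion step in these levels was not tested. EYY68_mgr01 stood at +0.67 from 1 to 6 days (SE 0.34, adjusted p = 0.135; exact p = 0.0198), and passed without C18R (+0.88, adjusted p = 0.0473) or without C33R (+0.67, adjusted p = 0.0276). EYY68_mgr02 stood at +0.10 (adjusted p = 0.897), and the W score passed for neither (adjusted p = 0.508 and 0.485).

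**Figure D5:**
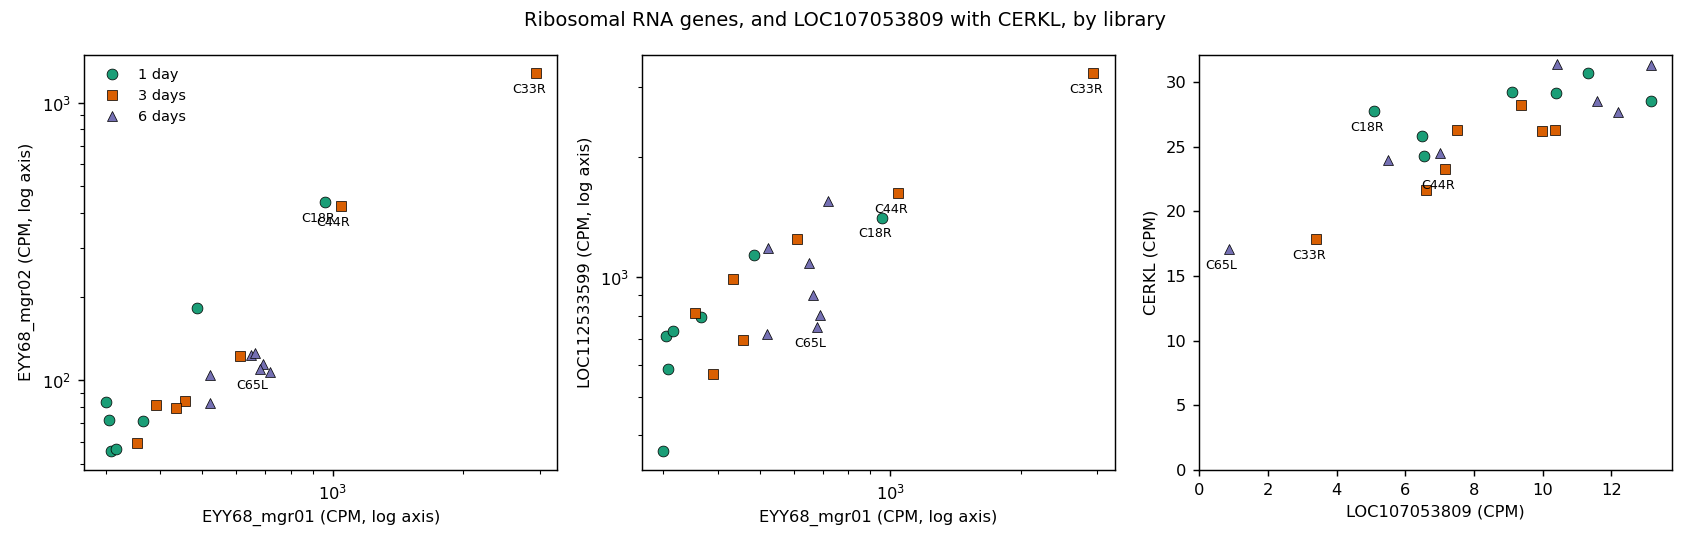
EYY68_mgr02 and LOC112533599 against EYY68_mgr01 (CPM, log axes), and CERKL against LOC107053809 (CPM, linear axes from 0), 1 point per library marked by days. C33R is at the upper right of the ribosomal RNA plots, with C44R and C18R next in the first, and C65L and C33R are the lowest for both LOC107053809 and CERKL.

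LOC107053809 is a long noncoding RNA gene on the plus strand of chromosome 7 (14324510 to 14363565) that overlaps ITGA4 on the other strand. Its lowest, median and highest libraries stood at 5.09, 9.10 and 13.2 CPM at 1 day. They stood at 3.40, 7.50 and 10.3 CPM at 3 days and at 0.866, 10.4 and 13.2 CPM at 6 days. Its place among the 10 rests on C65L, a 6-day library at 0.866 CPM without W-linked transcripts, and the next lowest was C33R at 3.40 CPM. The rest formed a series with no wide gap. CERKL, a gene related to ceramide kinase whose loss causes retinal degeneration in people, ends 5115 bases before it on the same strand. The levels of both moved together (r = 0.90, permutation p = 2e-05, adjusted 0.000120; rho = 0.83, permutation p = 3e-05, adjusted 0.000270), with r = 0.76 without C33R and C65L and 0.65, 0.94 and 0.96 at 1, 3 and 6 days. CERKL itself ranged from 17.1 to 31.4 CPM. ITGA4, an integrin of cell adhesion, ran the other way at 24.4 to 40.4 CPM (r = -0.79, permutation p = 3e-05, adjusted 0.000135; rho = -0.74, permutation p = 0.000250, adjusted 0.00112), with r = -0.68 without the same libraries and -0.51, -0.92 and -0.88 within ages. Of the 10 genes nearest to LOC107053809, CERKL and ITGA4 were the 2 past a rho of 0.6 in either direction. The p-values do not account for such a choice, so these relations are a description only. Whether counting used the strand is not stated, so reads of LOC107053809 and ITGA4 may not be fully separated. No age difference passed (adjusted p = 0.786, 0.927 and 0.637), nor did the W score (0.52, SE 0.31, adjusted p = 0.411).

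The wide spread within ages that chose the 10 genes also sets the standard errors of their age differences, from 0.34 to 1.55 log2 units, so nothing is read from how few were called. All 10 passed the filter of 0.5 CPM in at least 7 libraries. From 1 to 3 days limma called 0 of them higher and 0 lower (3 at an unadjusted p under 0.05), beside 10.2% of the 12579 genes, 7.73% higher and 2.44% lower. From 3 to 6 days it called 1 higher, STS, and 2 lower, CD69L and NEBL1, beside 22.4% of all genes, of which 17.4% higher and 4.94% lower. From 1 to 6 days it called 0 (1 at an unadjusted p under 0.05) beside 32.6%, 30.0% higher and 2.58% lower. The median change of the 10 was 0.66, -0.06 and 0.08 log2 units in these comparisons and that of all genes 0.07, 0.07 and 0.14. With the W score 3 were called, as given above.

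Neighbours in the genome that moved with a gene were found for 8 of the 10, if up to 5 genes on each side with a mean of at least 0.2 CPM are counted and a Spearman rho of 0.6 in either direction is taken as the mark. Of the 7475 genes 29.3% had such a neighbour. The 3 Z genes are neighbours of each other, as are the mitochondrial pair, so the 8 are not independent and nothing is read from that count. The Z genes had 9, 10 and 9 of 10 neighbours past that mark. Most of these share their split. GLIS3 (rho 0.74 with LOC112530611) and AK3 (rho 0.63 with LOC112530612) do not, as their ranges with and without W-linked transcripts overlapped. CD69L had 3 neighbours past the mark, LOC107053809 had 2 and STS 1. Each mitochondrial gene had 2 of 3, while NEBL1 and LOC112530237 had none.

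Marker lists of other tissues were summed in each library, and their part in the spread of the 10 genes was not tested. Retina genes summed to 1076 to 1647 CPM, with OPN2SW as the 1 gene of that list with a range of 2 log2 units or more within an age. Lens genes summed to 16.3 to 26.2 CPM, with CRYAA, CRYBB1, CRYBB3, ASL1, BFSP2 and MIP under 0.05 CPM. Of the 4 lens genes with a mean of at least 0.5 CPM, 0 had a range of 2 log2 units within an age. Pigment epithelium genes summed to 59.1 to 86.0 CPM, fibroblast and sclera genes to 3.72 to 6.43, leukocyte genes to 8.28 to 15.0 and erythroid genes to 0 to 0.158 CPM. RLBP1, the most abundant gene of the pigment epithelium list, is also on the retina list, so that sum may hold retinal transcript. Endothelial genes summed to 39.6 to 69.4 CPM and oligodendrocyte genes to 97.6 to 226 CPM. Genes of iris, ciliary body and cornea summed to 18.04 to 33.7 CPM, with ANGPTL7 as the 1 gene of that list with a range of 2 log2 units or more. Interferon genes summed to 40.9 to 59.5 CPM.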

How the data were processed

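The authors deposited 1 table of CPM values per gene and library. Per the submitters' processing notes STAR, Partek and GRCg6a were used; versions, annotation, use of strand and treatment of reads shared by genes are not given in the sources used here. The lowest deposited value, 0.0001, was taken as an offset and subtracted. Low values lay on steps for 94.6% to 95.8% of values (tolerance 0.1 of a step), too few to recover whole reads, so no count test was run. The table holds 29.9% to 34.2% of the total reads so estimated. The limits from counts of 0 cover counting error only.

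Levels were analysed as log2(CPM + 0.5), which understates changes of low genes, for genes that reached 0.5 CPM in 7 libraries or more, with limma 3.58.1 in R 4.3.3 (1 mean per age, trended empirical Bayes, two-sided). Benjamini-Hochberg adjustment ran over all genes tested, with 0.05 as the threshold, and "rose" or "fell" is used of calls. The workflow was tested on simulated data. The W score is the mean level of W genes past the filter. Single genes also had exact permutation tests, with a smallest p of 0.000583 for 7 against 7 libraries. Within ages the smallest p was 0.000117 for the W-linked transcripts and 3.89e-05 for the letter. Relations used deviations from age means and 100000 permutations within ages. Python 3.11.15 with scipy 1.17.1 was used. Groups came from the titles, positions from the table (GRCg6a), and chromosome names from a RefSeq table of GRCg7b, where 5 of the 10 symbols match.

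The members, lists and tests were chosen with earlier results of these data known. Named by rule are the members, genes next to or overlapping those with a gap of 2 log2 units, and the 3 genes most like each of these; other genes were named after their values were seen. Alternatives were other limits of the rule, pseudocounts, filters, scaling, robust fitting, the letter or W score as a covariate and each library left out. The fit in libraries with W-linked transcripts alone, tests by letter and some relations were added after the data were seen. Some of the genes and relations computed are not reported here.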

Additional observations from a re-analysis of the deposited data

Results flagged for a closer look

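In 7 of 30 sets of 7 libraries of one age and gene, 1 library stood far from the other 6, judged by its gap over the whole range; chance flags about 1 in 20 groups, and wide ranges chose these genes. At 6 days C65L, the 1 library of that age without W-linked transcripts, was apart at 0.0309 CPM in LOC100859072, 0 CPM in LOC112530611 and 0 CPM in LOC112530612. The same library was apart at 0.866 CPM in LOC107053809, and at 3 days C33R was apart in that gene at 3.40 CPM. EYY68_mgr01 had C18R apart at 1 day with 960 CPM, and NEBL1 had C34L apart at 3 days with 44.8 CPM.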

How the results depend on the processing

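The rule gave 19 genes with a mean of at least 2.5 CPM, 6 with at least 10 CPM and 17 with a range of at least 2.5 log2 units, and 8 and 2 gapped genes at the 2 limits on the mean. Without single libraries it gave 8 to 10 genes and 3 to 5 gapped ones. Calls from 3 to 6 days numbered 1 with no filter, with robust empirical Bayes and with the W score as a covariate, and 1 to 3 without single libraries; they fell from 3 to 1 without C10R, C18R, C21R, C22L, C23R, C31L, C43R, C57L, C59L or C62L, and NEBL1 passed in each of these. From 1 to 3 days calls numbered 1 with the W score and 0 to 1 without single libraries (1, STS, without C41R or C44R). From 1 to 6 days they numbered 1 with the W score, 2 in libraries with W-linked transcripts alone, and 0 to 3 without single libraries (1 without C18R or C33R, 3 without C65L). Calls with the W score stayed at 3 without single libraries and were 0 without the Z genes.

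Small differences turned sign. LOC107053809 from 3 to 6 days was 0.016 with a pseudocount of 2.5 and 0.57 with W-linked transcripts alone. From 1 to 6 days EYY68_mgr02 was -0.048 and STS -0.090 after median-of-ratios scaling. With the W score they were -0.18 and -0.44; STS was -0.026 with W-linked transcripts alone. EYY68_mgr01 from 3 to 6 days was 0.11 with the letter, and LOC100859072 from 1 to 3 days was -0.030 with W-linked transcripts alone. The cause was not tested. Without single libraries the ranges that crossed 0 were -0.30 to 0.57 (CD69L), -0.074 to 0.67 (LOC107053809) and -0.45 to 0.062 (NEBL1) for the W score; -0.20 to 0.31 (EYY68_mgr01) and -0.23 to 0.35 (LOC107053809) from 3 to 6 days; and -0.039 to 0.46 (EYY68_mgr02), -0.39 to 0.16 (LOC107053809) and -0.072 to 0.21 (STS) from 1 to 6 days. Of the other results for single genes under alternatives 327 kept direction and side of the threshold, 10 were weaker and 4 stronger. No paired analysis was possible because the groups share no number in their titles. Levels under about 0.1 CPM rest on 3 reads or fewer.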
